A study of Mus musculus with 12 samples.

Results

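The liver was compared here between mice given dextran sulfate sodium (DSS) on a diet named CD and mice on that diet alone. All mice were wild-type C57BL/6J, an inbred laboratory strain. The groups are CD (the diet, whose name the labels do not spell out), CD_DSS (the diet with 2% DSS), HFD (a high-fat diet) and HFD_DSS (that diet with 2% DSS), each with 3 liver RNA-seq libraries, 12 in all. The labels used here do not state how or for how long DSS was given, nor the age or sex of the animals. Nor do they say that each library is a different mouse, so the p-values rest on a spread between samples that may be technical. The members are the 10230 genes, of 54532 in the table and 25911 above 0 in any library, with at least 1 FPKM (fragments scaled to exon length and to the depth of the library) in at least 3 of the 6 CD and CD_DSS libraries. Of these, 47 passed through the CD_DSS libraries alone and 42 through the CD libraries alone, so these 89 had to differ. Of the 89, 37 are among the calls below, and they are marked where named.

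DSS is a sulfated polysaccharide that injures the lining of the colon and is used to produce colitis in mice. The liver receives the blood of the gut through the portal vein, and it answers inflammatory cytokines, among them interleukin-6, with the acute phase response, a large change in its secreted proteins driven by the transcription factor STAT3. Hepatocytes also divide their work along the lobule: those near the portal vein make urea and glucose, and those around the central vein make glutamine and bile acids and handle foreign compounds.

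Depth was 24.4 to 27.0 M fragments in CD and 25.2 to 29.4 M in CD_DSS. Y-linked Ddx3y had 8.62 to 14.7 FPKM and Xist at most 0.0113 in the 12 libraries. The tissue label was borne out by hepatocyte markers, with albumin (Alb) at 28898 to 37498 FPKM in the 6 libraries. The library CD_DSS 1 stood apart from CD_DSS 2 and 3. On the first principal component of the 6 libraries (55.9% of the variance) CD lay from −19.9 to −16.0, CD_DSS 1 at −0.02 and CD_DSS 2 and 3 at 25.4 and 27.7. CD_DSS 1 correlated at 0.975 to 0.980 with the CD libraries and at 0.973 with both other CD_DSS libraries. Results are given with all 6 libraries, and the values without CD_DSS 1 stand beside those it moves.

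In limma, fitted to log2(FPKM + 1) over the 4 groups, 532 of the 10230 genes (5.2%) changed at an adjusted p under 0.05: 222 rose (2.17%) and 310 fell (3.03%). With values rescaled to TPM, the split was 257 higher and 156 lower. The 3 CD and 3 CD_DSS libraries did not overlap in any of the 532, against 27.3% of all genes tested. The median log2 fold change was 0.62 over the genes that rose and −0.66 over those that fell, and −0.01 over all genes tested. In all, 122 genes moved by at least 1 on the log2 scale, 36 up and 86 down. The number of calls depended on single libraries: it was 221, 100 and 160 without CD 1, 2 and 3, and 113 and 68 without CD_DSS 2 and 3. Without CD_DSS 1 it was 1312 (12.8%), of which 606 were higher (5.92%) and 706 lower (6.9%), and 498 of the 532 remained. The shares of all genes given here are the background for the counts of calls in the lists below. They are no background for list counts at an unadjusted p under 0.05. The share of all genes at that threshold is not given, so those counts are a description. In each of the 6 fits that left out 1 library, 60 of the 532 remained called, 20 higher and 40 lower. A gene called below kept its call in those 6 fits where this is said, and lost it in at least 1 of them otherwise.

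**Figure D1:**
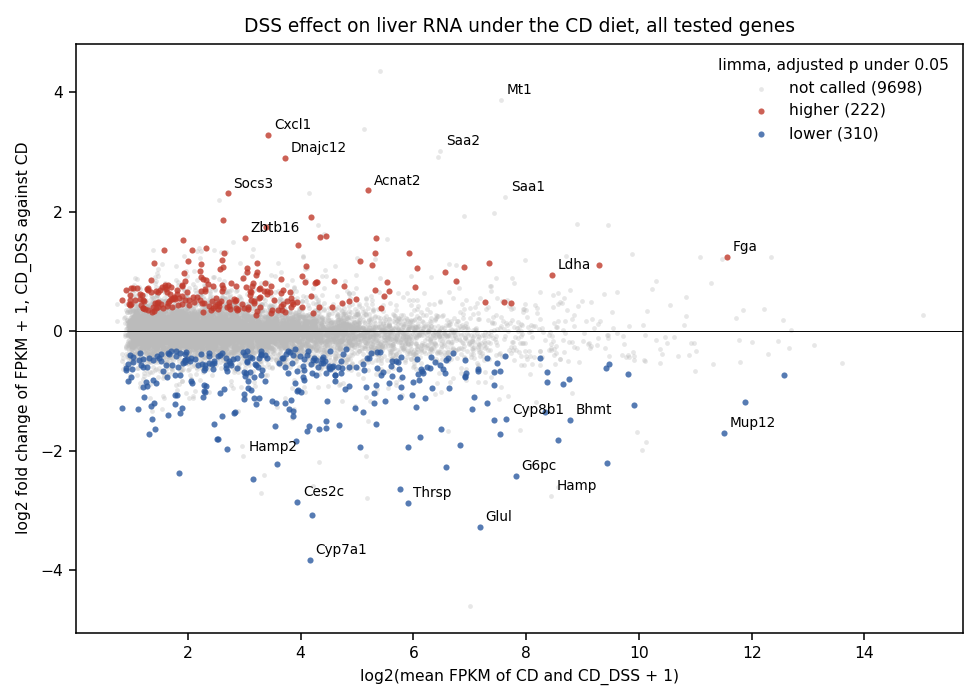
Log2 fold change of FPKM + 1, CD_DSS against CD, against the mean level of each of the 10230 tested genes (log2 axes, 1 point a gene), with the 222 genes called higher in red, the 310 called lower in blue and the rest in grey. Some of the largest differences, such as those of Mt1, Saa1, Saa2, Hamp and Hamp2, were not called.

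The genes whose calls held in all 6 of these fits describe the part of the comparison that did not turn on 1 library. Glul, glutamine synthetase, the enzyme that marks hepatocytes around the central vein, had 295, 243 and 242 FPKM in CD and 38.9, 17.6 and 25.01 in CD_DSS. It fell by 3.27 on the log2 scale (SE 0.35, limma adjusted p = 0.00194). Every CD library was above every CD_DSS library by more than the whole range within either group. Thrsp, a promoter of fatty acid synthesis, had 72.7, 97.9 and 141 FPKM in CD and 17.5, 13.9 and 8.64 in CD_DSS (log2 fold change −2.87, SE 0.30, limma adjusted p = 0.00194). Selenbp2, a selenium-binding protein of male-biased expression, had 459, 589 and 698 FPKM against 105, 232 and 174 (−1.82, SE 0.25, adjusted p = 0.00604). In Selenbp2 the lowest of the 6 values was that of CD_DSS 1, the library nearest to CD over all genes.

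Zbtb16, a zinc finger transcription factor that glucocorticoids induce, rose from 2.49, 4.13 and 2.71 FPKM in CD to 12.1, 11.6 and 9.41 in CD_DSS (log2 fold change 1.57, SE 0.16, limma adjusted p = 0.00194). Id2, an inhibitor of helix-loop-helix transcription factors, had 24.4, 17.3 and 17.2 FPKM in CD and 44.5, 43.0 and 47.1 in CD_DSS (1.17, SE 0.14, adjusted p = 0.00325). Ldha, the lactate dehydrogenase subunit that favours lactate formation, had 245, 224 and 249 FPKM in CD and 399, 452 and 542 in CD_DSS (0.94, SE 0.15, adjusted p = 0.00810). Every CD_DSS library lay above the CD range in these genes. Other genes whose calls held in all 6 fits were picked out here after their values were seen. Among those that rose were Creb3l2, a membrane-bound transcription factor of the secretory pathway (0.98), Ung, which removes uracil from DNA (1.14), the tetraspanin Cd9 (0.87), Rhoc, a small GTPase (0.76), and C5ar2, a receptor for complement C5a (0.63). Ung and C5ar2 passed the filter through CD_DSS alone. Among those that fell were Upp2, uridine phosphorylase (−1.63), the transcription factor Hes6 (−1.55), Tsc22d1 (−1.37), Serpina12 (−1.30), the steroid dehydrogenase Hsd3b3 (−1.17) and Slc23a1, a vitamin C transporter (−0.76).

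**Figure D2:**
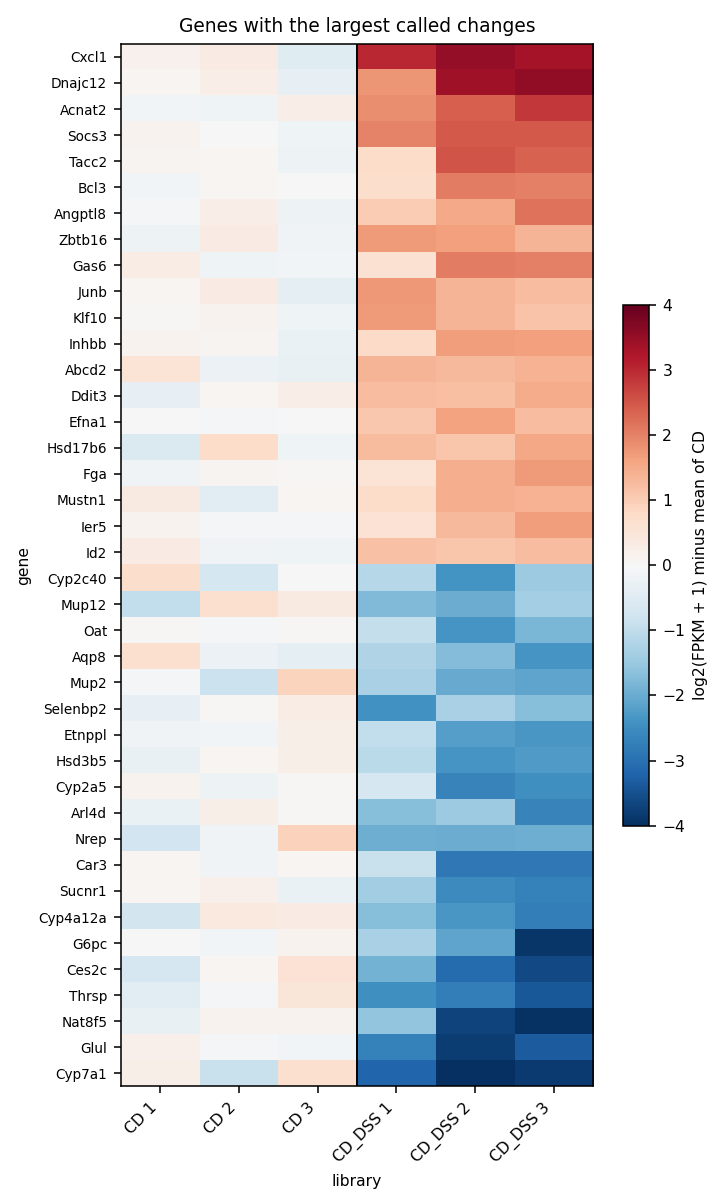
Heat map of the 20 called genes with the largest increases and the 20 with the largest decreases, 1 column per library, coloured by log2(FPKM + 1) minus the mean of CD (scale from −4 to 4). CD_DSS 1 is paler than CD_DSS 2 and 3 in many rows, such as Tacc2, Bcl3 and Nat8f5, and as strong or stronger in others, such as Junb, Klf10, Zbtb16 and Selenbp2.

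Some transcripts of signalling below interleukin-6 rose. Of 18 tested genes of interleukin-6 receptors, STAT3 and SOCS signalling, 4 rose and 1 fell, against 2.17% and 3.03% of all genes tested. The median log2 fold change was 0.29, against −0.01 over all genes tested. Socs3, the feedback inhibitor that STAT3 induces, had 1.40, 1.22 and 0.939 FPKM in CD and 7.67, 11.0 and 10.9 in CD_DSS (2.31, SE 0.33, limma adjusted p = 0.00682), and its call held in all 6 fits. Stat3 itself had 17.1, 16.5 and 14.7 FPKM in CD and 24.5, 30.7 and 34.7 in CD_DSS (0.85, SE 0.14, adjusted p = 0.0114). Il6st, the shared receptor chain gp130, had 25.6, 23.7 and 24.8 FPKM against 30.0, 36.7 and 43.7 (0.54, SE 0.13, adjusted p = 0.0357). All 3 genes were higher in each CD_DSS library, and in each of them CD_DSS 1 was the lowest of its group. Bcl3, a nuclear cofactor of NF-kB, rose from 8.54, 9.85 and 9.44 FPKM to 15.8, 41.2 and 40.3 (1.59, SE 0.41, adjusted p = 0.0496). Lifr, the receptor of leukemia inhibitory factor, which also signals through gp130, fell from 45.3, 42.3 and 48.6 FPKM to 29.2, 18.04 and 24.1 (−0.93, SE 0.20, adjusted p = 0.0286). Without CD_DSS 3 the list held 1 call higher, Socs3, and without CD_DSS 1 it held 6 higher and 1 lower. The cytokines Il6 and Tnf were under the filter, with Il6 listed at 0 in all 6 libraries and Tnf at most at 0.255 FPKM.

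Transcripts of the secreted acute phase proteins had large positive differences, few of which were called. Of 29 tested positive acute phase genes, 28 had a positive log2 fold change and the median was 1.26, the highest of the pathway lists, yet 1 gene was called higher and 1 lower. Saa1, serum amyloid A1, had 14.98, 49.2 and 32.8 FPKM in CD and 9.14, 595 and 483 in CD_DSS (2.25, SE 1.64, limma adjusted p = 0.442). Lcn2, lipocalin 2, which withholds iron from bacteria, had 3.72, 2.11 and 0.904 FPKM in CD and 2.35, 99.0 and 94.4 in CD_DSS (3.39, SE 1.46, adjusted p = 0.188). In both genes CD_DSS 2 and 3 were far above CD, and CD_DSS 1 was within or below the CD range. That did not hold for all of the list. CD_DSS 1 was above the CD range in 14 of the 29 genes and below it in 7, where it was outside that range in 60.4% of all tested genes. Without overlap between the groups, 14 of the 29 were higher in CD_DSS and 1 lower, against 12.7% and 14.5% of all tested genes. Without CD_DSS 1, 21 of the 29 were called higher and 1 lower, with a median of 1.85; Lcn2 was among them (5.01, adjusted p = 0.0308) and Saa1 was not (4.16, adjusted p = 0.0745). In each of the 5 other fits that left out 1 library, 0 of the 29 were called.

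Fga, the fibrinogen alpha chain, was the acute phase gene called higher with all libraries, at 1556, 1868 and 1761 FPKM in CD and 2539.7, 4725 and 5593 in CD_DSS (1.24, SE 0.31, limma adjusted p = 0.0452). Serpina3k, a serine protease inhibitor, was called lower, from 7389, 7142 and 8184 FPKM to 4640.2, 4488 and 4594 (−0.72, SE 0.15, adjusted p = 0.0243). The Serpina3 genes are a cluster of near copies, so their values are uncertain where the counting could split reads among them. Hamp, which encodes the iron hormone hepcidin, had 429, 351 and 889.8 FPKM in CD and 297, 15.1 and 91.3 in CD_DSS (−2.75, SE 1.08, adjusted p = 0.152; −3.73 and 0.0451 without CD_DSS 1). The 2 lowest Hamp values of the 6 libraries were in CD_DSS 2 and 3, where serum amyloid was high. The libraries of the high-fat diet varied otherwise. In HFD 1, 2 and 3 Saa1 was at 579, 19.9 and 22.4 FPKM and Hamp at 687, 507 and 675. In HFD_DSS 1, 2 and 3 Saa1 was at 1104, 190.8 and 2670 FPKM and Hamp at 67.5, 24.2 and 496. Mt2, a metallothionein, which binds zinc, had 0.971, 3.09 and 0.130 FPKM in CD and 4.50, 99.1 and 142 in CD_DSS (4.36, SE 1.22, adjusted p = 0.0629; 5.84 and 0.00635 without CD_DSS 1). The annotation has another gene over 73.5% of the exon bases of Mt2, so part of its value is uncertain. Of 26 complement genes, 0 were called in limma or by voom with all libraries (median 0.24, 0.37 with quantile normalization), with 12 higher and 3 lower at an unadjusted p under 0.05. Without CD_DSS 1, 11 were called, each higher.

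Of the chemokines and interferon-stimulated genes few were called, and these rose. In them CD_DSS 1 was above the CD range, as it was outside that range in all 532 called genes. Cxcl1, which attracts neutrophils, had 1.22, 1.46 and 0.408 FPKM in CD and 14.9, 21.6 and 18.9 in CD_DSS (log2 fold change 3.29, SE 0.65, limma adjusted p = 0.0205). It was the 1 called of 10 chemokines tested. Of 36 interferon-stimulated genes 4 rose and 0 fell (median 0.31, 29 positive), against 2.17% and 3.03% of all tested genes. Irf1, a transcription factor of interferon signalling, had 4.53, 5.64 and 3.16 FPKM in CD and 10.6, 8.65 and 11.2 in CD_DSS (1.05, SE 0.22, adjusted p = 0.0266). Igtp, an interferon-induced GTPase, had 14.0, 11.9 and 12.8 FPKM against 23.1, 28.5 and 19.997 (0.83, SE 0.19, adjusted p = 0.0326). Gbp3, a guanylate-binding protein, had 1.84, 1.80 and 1.53 FPKM against 3.33, 3.09 and 2.56 (0.55, SE 0.11, adjusted p = 0.0233). CD_DSS 1 held the highest value of the group in Gbp3 and was between the other 2 in Irf1 and Igtp. The fourth gene was Irf9, a subunit of the interferon-activated factor ISGF3 (0.51). The list held between 0 and 1 calls in each fit that left out a library other than CD_DSS 1, and Cxcl1 was called in none of these.

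The promoter sequences of some of these genes are shown because they hold short motifs bound by the factors named above. They are the 250 bases before the annotated start, 5′ to 3′ on the plus strand, from RefSeq (GRCm38.p6). Capitals mark matches to TTCNNNGAA (the core bound by STAT dimers), GGGANNTTC (a form of the NF-kB site) and GAAANNGAA (part of the interferon-stimulated response element), each searched on both strands.
Cxcl1, chr5:90890995-90891244, NF-kB matches in capitals: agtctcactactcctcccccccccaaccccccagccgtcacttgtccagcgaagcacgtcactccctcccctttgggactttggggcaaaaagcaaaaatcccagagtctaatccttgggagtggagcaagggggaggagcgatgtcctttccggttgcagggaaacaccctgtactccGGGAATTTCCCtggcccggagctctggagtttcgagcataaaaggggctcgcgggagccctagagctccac
Irf1, chr11:53769764-53770013, STAT match in capitals: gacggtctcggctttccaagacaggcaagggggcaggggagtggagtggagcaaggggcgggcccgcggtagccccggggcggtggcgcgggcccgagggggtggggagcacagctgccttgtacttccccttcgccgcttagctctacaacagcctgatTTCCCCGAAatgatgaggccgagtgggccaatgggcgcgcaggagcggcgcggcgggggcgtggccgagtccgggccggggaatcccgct
Igtp, chr11:58199306-58199555, STAT match first and interferon element second: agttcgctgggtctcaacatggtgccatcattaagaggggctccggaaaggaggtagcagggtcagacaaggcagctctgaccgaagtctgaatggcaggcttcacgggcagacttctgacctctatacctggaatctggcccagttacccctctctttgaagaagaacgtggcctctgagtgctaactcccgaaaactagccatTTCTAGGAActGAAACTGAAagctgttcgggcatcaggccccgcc
Gbp3, chr3:142559794-142560043, interferon element matches in capitals: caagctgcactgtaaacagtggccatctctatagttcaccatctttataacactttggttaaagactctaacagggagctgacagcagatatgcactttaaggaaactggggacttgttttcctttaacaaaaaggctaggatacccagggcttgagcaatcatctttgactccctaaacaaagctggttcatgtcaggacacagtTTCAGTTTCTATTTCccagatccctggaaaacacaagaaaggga
In Cxcl1 a match on each strand, starting 71 and 69 bases before the start, overlap into 1 run of capitals. The STAT match of Irf1 begins 90 bases before the start. RefSeq gives 2 promoters each for Irf1 and Gbp3, of which 1 is shown. In Igtp the STAT match begins 45 and the interferon element 34 bases before it, and in Gbp3 the 2 overlapping matches begin 44 and 38 bases before it. RefSeq promoters were matched by symbol for 7651 of the 10230 tested genes. Over the 300 bases around each start, TTCNNNGAA was found in 7.76% of the promoters of genes called higher, 4.37% of those called lower, 6.59% of those of all tested genes and 8.3% of all 32851 promoters. For GGGANNTTC the shares were 3.27%, 4.08%, 3.64% and 3.94%, and for GAAANNGAA 6.94%, 7.58%, 7.02% and 8.56%. As a group the genes that rose therefore held these letters about as often as promoters in general, and a match is a description of the letters, not of binding.

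Immediate early genes, transcription factors that cells switch on within minutes of a signal, were among those that rose. Of 19 immediate early genes, 6 rose and 0 fell (median 0.33), against 2.17% of all tested genes that rose. Klf10, a zinc finger factor, had 1.80, 1.98 and 1.45 FPKM in CD and 7.80, 6.03 and 5.05 in CD_DSS (1.40, SE 0.19, limma adjusted p = 0.00502). Fosl2, an AP-1 subunit, had 1.41, 1.17 and 1.11 FPKM against 2.79, 3.16 and 2.49 (0.77, SE 0.12, adjusted p = 0.0081). Both kept their calls in all 6 fits. Junb, another AP-1 subunit, had 7.60, 9.22 and 5.25 FPKM against 26.1, 20.1 and 18.4 (1.45, SE 0.31, adjusted p = 0.0263), and CD_DSS 1 was again the highest. Ier5 (1.18), Atf3 (0.72) and Gadd45b (0.72) were the others. Atf3 and Gadd45b passed the filter through CD_DSS alone, so they had to differ, and they are counted among the 6. Fos (0.33), Jun (0.14) and Egr1 (−0.17), the best known of the class, were not called. Between 2 and 3 of the 19 were called in each fit without a library other than CD_DSS 1, and 7 without CD_DSS 1.

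Of 17 tested targets of ATF4, the effector of the integrated stress response, 3 rose and 1 fell (median 0.12). The shares over all tested genes were 2.17% and 3.03%. Ddit3, which encodes CHOP, had 1.83, 2.78 and 3.26 FPKM in CD and 7.47, 7.27 and 8.97 in CD_DSS (1.31, SE 0.27, limma adjusted p = 0.0243). Atf3, which passed the filter through CD_DSS alone, and Atf5 rose, and Cth, described below, fell. Of 28 genes of protein folding in the endoplasmic reticulum, 25 had a positive log2 fold change (median 0.39) and 1 was called, Dnajc12, a co-chaperone. Dnajc12 had 1.90, 2.30 and 1.20 FPKM in CD and 8.33, 28.0 and 31.3 in CD_DSS (2.90, SE 0.56, adjusted p = 0.0191). The folding chaperone Hspa5 (BiP) had 189, 419 and 437 FPKM in CD and 444, 543 and 604 in CD_DSS, where the lowest value lay just above the CD range (0.69, SE 0.35, adjusted p = 0.260). Cytosolic heat shock chaperones, proteasome subunits, cytosolic ribosomal proteins, ribosome biogenesis genes, p53 targets and cell division genes had 0 genes called in limma, with medians from −0.06 to 0.30. At an unadjusted p under 0.05 these 6 lists held 6, 1, 0, 1, 4 and 2 genes, and voom called 1 gene, a p53 target that was lower. All 10 tested cell division genes were positive, 5 without overlap between the groups, against 12.7% of all tested genes. Another 15 of the 25 listed were under the filter and not tested, and in 10 of these each CD_DSS library was above each CD library. Mki67, a marker of dividing cells singled out after its values were seen, had 0.195, 0.210 and 0.110 FPKM in CD and 0.766, 0.436 and 0.498 in CD_DSS.

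Targets of the glucocorticoid receptor divided. Of 22 tested, 3 rose (Zbtb16, Fkbp5 and Gadd45b) and 3 fell (Tsc22d3, Tat and Tdo2), with a median of −0.19. Over all tested genes 2.17% rose and 3.03% fell. Gadd45b passed the filter through CD_DSS alone. Fkbp5, a co-chaperone of the receptor, rose from 3.76, 5.17 and 4.22 FPKM to 5.82, 12.0 and 12.7 (0.99, SE 0.25, limma adjusted p = 0.0443). Tsc22d3, known as GILZ, fell from 29.9, 60.2 and 56.1 FPKM to 14.6, 19.4 and 19.5 (−1.35, SE 0.26, adjusted p = 0.0191). Tat, tyrosine aminotransferase, fell from 904, 1470.4 and 1663 FPKM to 745, 519.9 and 441 (−1.23, SE 0.25, adjusted p = 0.0210). Zbtb16 was called in each fit that left out 1 library. Fkbp5 kept its call in 1 of the 6 such fits, Tsc22d3 and Tat in 2.

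Genes of amino acid catabolism were among those that fell. Of 45 tested genes for urea synthesis and amino acid breakdown, 14 fell and 0 rose, against 3.03% of all genes that fell, 42 were negative and the median was −0.39 (−0.29 with quantile normalization). In 29 of the 45 the libraries did not overlap and CD_DSS was lower, against 14.5% of all tested genes. Glul, described above, is 1 of the 14. Oat, ornithine aminotransferase, had 289, 262 and 284 FPKM in CD and 142, 53.5 and 77.4 in CD_DSS (−1.72, SE 0.33, limma adjusted p = 0.0173). Ass1, argininosuccinate synthase of the urea cycle, had 990.3, 1169.7 and 1169 FPKM against 857, 590.3 and 615 (−0.71, SE 0.17, adjusted p = 0.0419). Genes of tyrosine breakdown that fell were Tat, Hpd (−0.61) and Hgd (−0.66), the hydroxyphenylpyruvate and homogentisate dioxygenases. Prodh, proline dehydrogenase (−1.02), Got1, an aspartate aminotransferase (−0.96), Slc25a15, the mitochondrial ornithine carrier (−0.69), Gls2, liver glutaminase (−0.63), Aass of lysine breakdown (−0.63), Agxt2 (−0.55) and Mccc1 of leucine breakdown (−0.50) fell as well. The other enzymes of the urea cycle were not called: Cps1 (−0.40), Otc (−0.38), Asl (−0.46) and Arg1 (−0.04). The list held 4, 1 and 2 calls without CD 1, 2 and 3, and 2 and 1 without CD_DSS 2 and 3. Without CD_DSS 1 it held 19.

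The methionine and choline-derived methyl group pathway also held genes that fell. Of 27 tested genes of one-carbon, methionine and glutathione metabolism 6 fell and 1 rose (median −0.28), against 3.03% and 2.17% of all tested genes. Bhmt, which uses betaine to remake methionine from homocysteine, had 539.9, 776 and 611 FPKM in CD and 175, 307 and 218 in CD_DSS (−1.48, SE 0.22, limma adjusted p = 0.00740). Cth, cystathionine gamma-lyase, which makes cysteine, had 183, 194 and 169 FPKM against 98.4, 86.3 and 69.5 (−1.11, SE 0.13, adjusted p = 0.00297). The calls of Bhmt and Cth held in all 6 fits, and the values of both groups were far apart in each. Bhmt2, a related homocysteine methyltransferase (−0.56), fell too. So did Dmgdh (−0.75) and Sardh (−0.53), which take methyl groups off dimethylglycine and sarcosine, and Shmt1, an enzyme of folate metabolism (−0.61). Gss, glutathione synthetase, rose from 9.04, 8.32 and 9.26 FPKM to 15.4, 13.5 and 16.2 (0.70, SE 0.14, adjusted p = 0.0233). It shares 6.68% of its exon bases with Acss2. This list held 4, 3 and 3 calls without CD 1, 2 and 3, and 2 each without CD_DSS 2 and CD_DSS 3.

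A list of sulfide and cysteine metabolism was put together after these values were seen. Its counts are therefore a description and are not set against the shares of all genes. Of its 15 tested genes, 8 fell and 0 rose (median −0.57). Bhmt, Bhmt2, Cth and Got1 are among them and were already counted in the lists above. The others were Mpst, mercaptopyruvate sulfurtransferase, Ethe1, the mitochondrial persulfide dioxygenase, Tst, the sulfurtransferase rhodanese, and Tstd3. Mpst had 47.4, 54.8 and 57.7 FPKM in CD and 31.6, 33.3 and 33.0 in CD_DSS (−0.69, SE 0.11, limma adjusted p = 0.00907), and its call held in all 6 fits. Ethe1 had 64.9, 50.3 and 44.0 FPKM against 35.7, 18.8 and 16.6 (−1.19, SE 0.24, adjusted p = 0.0205). Both genes were lower in each CD_DSS library. Tstd3 shares 17.4% of its exon bases with Ccnc.

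Of 19 tested genes of tryptophan and NAD metabolism 4 fell and 0 rose (median −0.25), against 3.03% and 2.17% of all tested genes. Acmsd, which diverts tryptophan away from NAD, had 18.02, 19.8 and 20.9 FPKM in CD and 10.3, 5.63 and 6.31 in CD_DSS (−1.33, SE 0.18, limma adjusted p = 0.00572), and its call held in all 6 fits. Tdo2, the liver tryptophan dioxygenase, had 416, 393 and 449 FPKM against 289.9, 242 and 179 (−0.85, SE 0.17, adjusted p = 0.0205). Aadat, a kynurenine aminotransferase (−1.04), and Ido2 (−0.73) were the others. Each CD_DSS value of these 4 genes was below the CD range.

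Both ends of the lobule were represented among the genes that fell. Of 33 pericentral hepatocyte genes 6 fell and 0 rose, and of 31 periportal genes 5 fell and 1 rose, with a median of −0.33 in each list. The shares over all tested genes were 3.03% lower and 2.17% higher. The pericentral genes were Glul, Cyp7a1, Cyp2a5, Oat, Lhpp and Rhbg, an ammonium transporter. Rhbg was low throughout, at 1.37, 1.30 and 1.64 FPKM in CD and 0.398, 0.230 and 0.496 in CD_DSS (−0.83, SE 0.13, limma adjusted p = 0.0096), and another annotated gene covers 61.4% of its exon bases. It passed the filter through CD alone, so its presence among the tested genes already required a difference. The calls of Glul and Rhbg held in all 6 fits. The periportal genes that fell were G6pc, Etnppl, Cyp2f2, Ass1 and Gls2. Etnppl, which breaks down phosphoethanolamine, had 19.9, 20.3 and 25.9 FPKM in CD and 10.7, 3.98 and 3.60 in CD_DSS (−1.83, SE 0.33, adjusted p = 0.0146). Hsd17b6, a steroid dehydrogenase, rose from 21.9, 56.2 and 29.2 FPKM to 80.8, 73.2 and 98.4 (1.31, SE 0.30, adjusted p = 0.0357). Without CD_DSS 1, 13 pericentral and 6 periportal genes were called lower. Without CD_DSS 3 these counts were 2 and 1. In bulk tissue, fewer cells of a type and less RNA per cell cannot be told apart.

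A few transcripts of bile acid synthesis fell, among them that of its first enzyme. Of 17 tested genes 4 fell and 0 rose (median −0.50), against 3.03% and 2.17% of all tested genes. Cyp7a1, which starts the classical pathway, had 35.3, 15.6 and 46.6 FPKM in CD and 2.37, 0.379 and 1.15 in CD_DSS (−3.83, SE 0.68, limma adjusted p = 0.0145). Cyp8b1, which decides between cholic and chenodeoxycholic acid, had 324, 245 and 312 FPKM against 86.2, 113 and 116 (−1.48, SE 0.17, adjusted p = 0.00288), and its call held in all 6 fits. In Cyp8b1 the lowest value was that of CD_DSS 1. Akr1d1, the steroid 5-beta-reductase, fell from 81.6, 71.6 and 58.6 FPKM to 51.9, 31.0 and 29.1 (−0.94, SE 0.22, adjusted p = 0.0368), and Acox2 of side chain shortening by 0.52. The bile acid receptor Nr1h4 (FXR; −0.31, adjusted p = 0.161) and Nr0b2 (SHP, which FXR induces; −0.05, adjusted p = 0.949) were not called. Of 22 transporters, Slc10a2, the bile acid uptake carrier best known from the ileum and bile ducts, rose from 9.80, 12.2 and 11.4 FPKM to 22.0, 18.9 and 20.6 (0.83, SE 0.20, adjusted p = 0.0422). Slc22a30 (−1.10) and Slc47a1 (−0.62) fell. Between 1 and 2 of the 17 synthesis genes were called without 1 library other than CD_DSS 1, and 8 without CD_DSS 1.

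A minority of the transcripts of fatty acid and cholesterol synthesis fell. Of 28 genes that make fatty acids and triglycerides 5 fell and 0 rose (median −0.47), against 3.03% and 2.17% of all tested genes. The 5 were Thrsp, Acacb, Acss2, Acly and Agpat2. Acly, which makes cytosolic acetyl-CoA from citrate, had 89.6, 81.1 and 80.3 FPKM in CD and 46.2, 34.1 and 38.3 in CD_DSS (−1.07, SE 0.18, limma adjusted p = 0.0106). Acacb, the acetyl-CoA carboxylase whose product restrains fatty acid oxidation, had 17.7, 16.2 and 15.4 FPKM against 7.18, 3.56 and 4.18 (−1.59, SE 0.34, adjusted p = 0.0283). Scd1, stearoyl-CoA desaturase, had 1598, 1369 and 1235 FPKM in CD and 1307, 294 and 208 in CD_DSS, so CD_DSS 1 lay within the CD range and the gene was not called (−1.69, SE 0.88, adjusted p = 0.270). Without CD_DSS 1, 11 of the 28 were called lower, and without CD_DSS 3, 1. Of 30 genes of cholesterol synthesis and uptake 4 fell and 0 rose (median −0.46). Insig1 (−0.70), which holds back the activation of this pathway, Dhcr7 (−0.69), an enzyme of its last steps, and Stard4 (−0.59), a sterol carrier, were among them. In each fit without 1 library other than CD_DSS 1, 0 of the 30 were called. Of 38 genes of fatty acid oxidation and ketogenesis 1 was called, Cyp4a31, which rose by 1.12, where 2.17% of all tested genes rose. That list had a median of −0.03, which was 0.04 with quantile normalization.

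Some transcripts of glucose output fell and that of lactate dehydrogenase rose. Of 26 genes of gluconeogenesis and glycogen 5 fell and 0 rose (median −0.32), against 3.03% and 2.17% of all tested genes. G6pc, the catalytic subunit of glucose-6-phosphatase, had 355, 334 and 403 FPKM in CD and 147, 83.9 and 23.7 in CD_DSS (−2.42, SE 0.50, limma adjusted p = 0.0233). Pck1, the other well-known enzyme of the pathway, had 808, 1099.5 and 990.1 FPKM in CD and 1168, 747 and 409 in CD_DSS, with CD_DSS 1 the highest of the 6, and was not called (−0.43, SE 0.30, adjusted p = 0.412). The liver glycogen phosphorylase Pygl (−0.71), cytosolic malate dehydrogenase Mdh1 (−0.41), Got1 and Tat were the others that fell. Of 22 genes of glycolysis and fructose use, Ldha rose and 0 fell (median −0.18). At most 1 gene of the gluconeogenesis list was called without any 1 library other than CD_DSS 1, and 8 without CD_DSS 1.

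Nuclear genes of oxidative phosphorylation moved little but together. All 50 tested had a negative log2 fold change, with a median of −0.28 (−0.17 with quantile normalization), and in 36 the CD_DSS libraries lay below the CD libraries without overlap, against 14.5% of all tested genes. In limma and voom 0 of the 50 were called with all libraries, although 33, each lower, had an unadjusted p under 0.05. In limma 10 were called, each lower, without CD_DSS 1. By library the median difference from the CD mean was −0.18 in CD_DSS 1, −0.27 in CD_DSS 2 and −0.36 in CD_DSS 3. Of 13 mitochondrially encoded proteins, each negative (median −0.37), 1 fell: mt-Nd3, a subunit of complex I, from 122, 141 and 155 FPKM to 102, 98.3 and 97.8 (−0.48, SE 0.12, adjusted p = 0.0452). Its call ended in 4 of the 6 fits without 1 library.

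Many male-biased liver genes, which depend on the pulsed growth hormone secretion of males, fell. Of 28 tested 13 fell and 0 rose, against 3.03% and 2.17% of all tested genes. In this list 27 were negative and the median was −1.20. By library the median difference from the CD mean was −0.95 in CD_DSS 1, −1.28 in CD_DSS 2 and −1.34 in CD_DSS 3. Hsd3b5, a steroid dehydrogenase, had 139.96, 182 and 203 FPKM in CD and 81.1, 33.2 and 35.03 in CD_DSS (−1.90, SE 0.36, limma adjusted p = 0.0172). Cyp4a12a, a fatty acid and arachidonate hydroxylase, had 89.5, 197 and 186 FPKM against 44.6, 28.8 and 21.2 (−2.27, SE 0.42, adjusted p = 0.0165). Mup12, a major urinary protein, had 2069.5, 6307 and 5195 FPKM against 1200.0, 1039 and 1576 (−1.70, SE 0.41, adjusted p = 0.0402). Of 20 tested major urinary proteins 5 fell and 0 rose (median −1.27), and CD 1 was the lowest CD library in the median of that list, at −0.63 from the CD mean. The Mup, Cyp4a and Ces2 genes have near-identical copies, so the values of single members are uncertain. Ghr, the growth hormone receptor, fell from 63.5, 70.7 and 72.3 FPKM to 54.6, 34.0 and 34.6 (−0.76, SE 0.18, adjusted p = 0.0358), and Igf1, its main target in the liver, was not called (−0.32, adjusted p = 0.101). Of 9 female-biased genes Abcd2 rose (1.36) and Cyp2c40 fell (−1.67). Without single libraries other than CD_DSS 1 the male-biased list held 2 to 10 calls, each lower, and 18 without CD_DSS 1.

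Some transcripts of enzymes for foreign compounds fell. Of 32 cytochromes P450 of families 1 to 3, 5 fell and 1 rose (median −0.33), where 3.03% of all tested genes fell and 2.17% rose. Cyp2a5 had 98.2, 77.8 and 93.3 FPKM in CD and 55.9, 13.1 and 15.4 in CD_DSS (−1.94, SE 0.43, limma adjusted p = 0.0310). Cyp3a13 rose from 63.7, 60.4 and 57.4 FPKM to 78.3, 149.8 and 149 (0.98, SE 0.23, adjusted p = 0.0357). Of 14 carboxylesterases 3 fell, with Ces2c the furthest, from 14.7, 25.6 and 36.7 FPKM to 5.83, 1.94 and 1.07 (−2.85, SE 0.56, adjusted p = 0.0197). In all 14 tested UDP-glucuronosyltransferases the log2 fold change was negative (median −0.49) and 2 were called. Of 26 sulfotransferases and glutathione transferases 2 were called lower (median −0.41), and 13 were without CD_DSS 1, where 6.9% of all tested genes were. Gstm3, a glutathione transferase, had 64.9, 42.4 and 29.6 FPKM in CD and 61.9, 6.62 and 7.11 in CD_DSS (−1.50, adjusted p = 0.206; −2.50 and 0.00442 without CD_DSS 1). Carbonic anhydrases, a list put together after values were seen and so a description, had 4 of 6 tested genes lower: Car3, from 1136, 989 and 1139 FPKM to 585, 147 and 149 (−2.21, SE 0.54, adjusted p = 0.0414), Car14 (−1.20), Car1 (−1.10) and Car5a (−0.91). Without CD_DSS 3, 0 of the P450, glucuronosyltransferase, carboxylesterase and carbonic anhydrase genes were called.

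Autophagy, which the series title names, had few transcripts called, and its genes lay on both sides of 0. Of 43 tested autophagy genes 2 fell and 0 rose, with a median of 0.01. The 2 that fell are a share near the 3.03% of all tested genes that fell. Without overlap between the groups, 12 of the 43 were higher and 7 lower in CD_DSS, against 12.7% and 14.5% of all tested genes. Without CD_DSS 1, 3 were called higher and 3 lower, against 5.92% and 6.9%. Atg7, the E1-like enzyme of autophagy, had 7.53, 7.99 and 7.94 FPKM in CD and 5.58, 6.04 and 6.11 in CD_DSS (−0.35, SE 0.08, limma adjusted p = 0.0374). Optn, a cargo receptor, had 19.3, 17.0 and 19.8 FPKM against 15.4, 13.7 and 12.6 (−0.40, SE 0.10, adjusted p = 0.0455). Sqstm1, the cargo receptor p62, had 135, 138 and 118 FPKM against 151, 144 and 153 (0.20, SE 0.09, adjusted p = 0.210), and Map1lc3b, which encodes LC3B, 14.8, 16.3 and 15.7 against 17.1, 21.5 and 21.7 (0.34, SE 0.10, adjusted p = 0.0824; 0.45 and 0.014 without CD_DSS 1). Tfeb, the regulator of lysosomal genes, was low and not called (0.25, adjusted p = 0.146). Of 34 lysosomal genes 28 were positive (median 0.12) and 1, the protease gene Lgmn, rose by 0.69, where 2.17% of all tested genes rose. The calls of Atg7 and Optn each held in 1 of the 6 fits without a library.

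Some secreted factors and receptors also changed. Of 27 hepatokines 4 rose and 1 fell, where 2.17% of all tested genes rose and 3.03% fell. Inhbb, the beta B chain of activin, had 0.795, 0.738 and 0.341 FPKM in CD and 1.72, 4.17 and 4.04 in CD_DSS (1.36, SE 0.22, limma adjusted p = 0.00907). It passed the filter through CD_DSS alone, so its presence among the tested genes already required a difference, and it is counted among the 4. Angptl8, which inhibits lipoprotein lipase through its partners, had 8.58, 10.7 and 7.42 FPKM against 18.9, 27.2 and 43.3 (1.57, SE 0.31, adjusted p = 0.0205). Gas6, the ligand of the receptors Axl and Mer, rose by 1.56 and Inhbe, another activin chain, by 0.81. Acnat2, an acyltransferase that conjugates fatty acids to taurine, had 9.80, 9.39 and 12.8 FPKM in CD and 41.4, 59.1 and 80.5 in CD_DSS (2.35, SE 0.40, adjusted p = 0.0124). Efna1, a ligand of Eph receptors, had 22.0, 20.8 and 22.0 FPKM against 46.9, 68.5 and 52.2 (1.31, SE 0.23, adjusted p = 0.0142). B4galt5, which adds galactose to glycans, kept its call in all 6 fits, from 4.21, 5.30 and 4.76 FPKM to 8.78, 13.6 and 13.3 (1.14, SE 0.17, adjusted p = 0.00804). It was singled out after its value was seen. Aqp8, a water channel, fell from 157, 85.6 and 76.4 FPKM to 42.9, 29.4 and 18.8 (−1.77, SE 0.39, adjusted p = 0.0299). Sucnr1, the succinate receptor, fell from 19.0, 21.2 and 14.8 to 6.25, 2.30 and 1.94 (−2.21, SE 0.41, adjusted p = 0.0163). Without CD_DSS 1 the hepatokine list held 5 calls higher and 10 lower, against 5.92% and 6.9% of all tested genes, and without CD_DSS 3 it held 0.

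**Figure D3:**
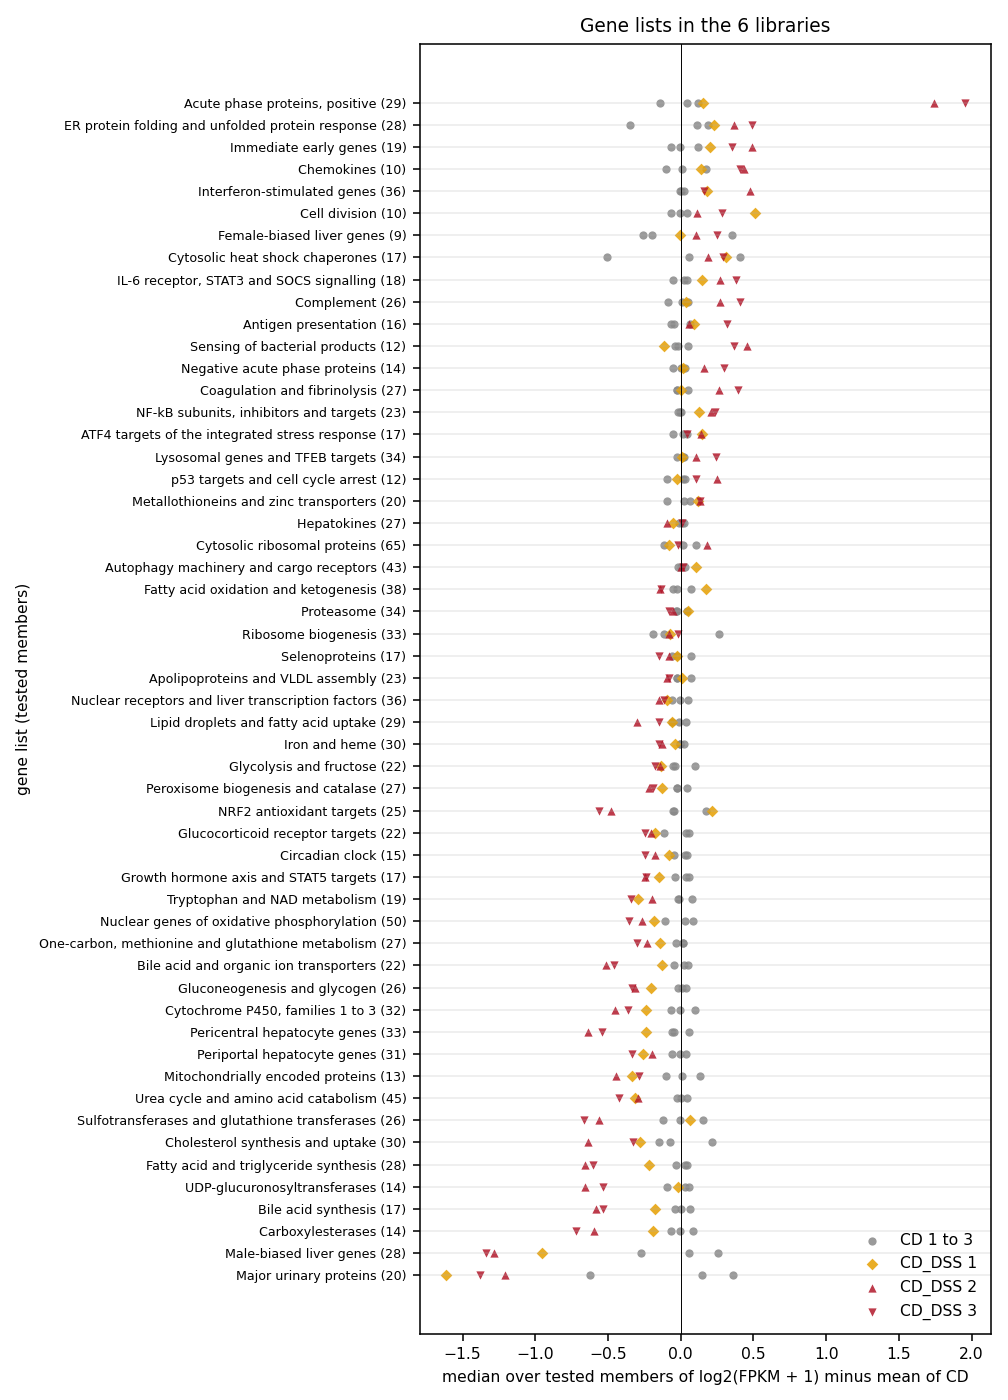
Median over the tested members of each pathway list (number in brackets) of log2(FPKM + 1) minus the CD mean, 1 symbol per library, lists ordered by their median log2 fold change. CD_DSS 2 and 3 stand well above all other libraries in the positive acute phase proteins. There CD_DSS 1, at 0.15, lies just above the CD libraries, which span −0.14 to 0.12. All 3 CD_DSS libraries are low in the male-biased and urea cycle lists.

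Markers of other cell types moved with some of these groups. Macrophage markers, which include those of Kupffer cells, the resident macrophages of the liver, were all positive (16 of 16, median 0.59). In limma and voom 0 were called with all libraries, and 13, each higher, had an unadjusted p under 0.05. Without CD_DSS 1, limma called 12, each higher. Their summed level was 433.0, 351.4 and 361.8 FPKM in CD and 398.8, 684.8 and 711.3 in CD_DSS, so CD_DSS 1 lay within the CD range. Cd5l, a secreted macrophage protein, had 61.0, 44.8 and 50.1 FPKM in CD and 57.3, 132 and 124 in CD_DSS (0.91, SE 0.32, adjusted p = 0.118; 1.30 and 0.0141 without CD_DSS 1). The 16 neutrophil and monocyte markers summed to 3.94, 4.95 and 2.58 FPKM in CD and 5.05, 27.0 and 20.4 in CD_DSS, and 1 of them, S100a9, passed the filter. Of 3 tested lymphocyte markers 1, the immunoglobulin gene Ighm, fell, from 5.08, 5.98 and 2.45 FPKM to 1.30, 2.22 and 2.26 (−0.87, SE 0.22, adjusted p = 0.048; −0.70 and 0.0754 without CD_DSS 1). The other 2, Igkc and Jchain, went the other way. Both were higher in CD_DSS without overlap, against 12.7% of all tested genes, and were not called. The median of the 3 was 0.51. The 19 lymphocyte markers summed to 21.6 to 30.8 FPKM in CD and 28.6, 48.9 and 39.3 in CD_DSS. These sums were high in CD_DSS 2 and 3, the libraries in which the acute phase and complement genes were high, and their part in those results was not tested. The sums of hepatocyte (44868.3 to 48774.2 FPKM in CD, 49265.4 to 53360.4 in CD_DSS), endothelial (179.6 to 193.0 and 166.8 to 216.8) and stellate cell markers (119.7 to 160.5 and 130.6 to 156.3) differed less. Of the endothelial markers Clec4g rose (0.48), and of 4 tested cholangiocyte markers Sox9 rose, from 1.94, 1.78 and 1.55 FPKM to 3.67, 3.16 and 4.21 (0.76, SE 0.10, adjusted p = 0.0043), with its call kept in all 6 fits. The median of the 4 was 0.20. Of 8 cholangiocyte markers under the filter, 0 were higher without overlap and 1, Krt7, was lower. Markers of pancreas, fat, muscle and gut summed to 9.02 to 13.6 FPKM in CD and 4.51 to 8.97 in CD_DSS, and 7 of these 17, among them pancreatic Prss1 and Pnlip, were at 0 in all 6 libraries.

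The position of CD_DSS 1 between CD and the 2 other CD_DSS libraries was described gene by gene. The 1312 genes called without CD_DSS 1 were used, so that this library took no part in choosing them. For each gene its log2 value was placed on a scale on which the CD mean is 0% and the mean of CD_DSS 2 and 3 is 100%. The median over all 1312 genes was 38.0%. CD_DSS 1 was beyond the CD range in the direction of the other 2 in 924 of the genes (70.4%), beyond it the other way in 104 and within it in 284. The same measure for CD_DSS 2, on the 113 genes called without it, had a median of 87.9%, and for CD_DSS 3, on 68 genes, 109.0%. These medians rest on unlike sets of genes, because CD_DSS 1 took part in calling the 113 and the 68. On the 532 genes called with all libraries, which CD_DSS 1 helped to choose, its median position was 74.7%. The genes called without 1 library were chosen by values that include the CD mean and the 2 other libraries. The scale is therefore a description.

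The lists are given with the number of genes in which CD_DSS 1 was beyond the CD range on the side of the other 2. The median position was 18.6% over 22 positive acute phase genes, 15 of them beyond the CD range, and 12.2% over 11 complement genes, 6 beyond it. It was 10.9% over 12 macrophage markers, 3 beyond it, and 26.3% over 13 pericentral genes, 10 beyond it. It was −13.8% over 10 NRF2 antioxidant targets and −6.8% over 13 sulfotransferases and glutathione transferases, with 4 beyond it in each. The median was 90.1% over 8 one-carbon and methionine genes, all 8 beyond the CD range, and 66.3% over 18 male-biased genes, 16 beyond it. It was 55.8% over 19 genes for urea synthesis and amino acid breakdown and 56.5% over 10 genes of oxidative phosphorylation, each of them beyond the CD range. Over 7 immediate early genes it was 78.6%, 6 beyond it. Over 5 interferon-stimulated genes it was 94.7% and over 5 major urinary proteins 106%, all beyond it. Lists share some genes, such as C1qa, C1qb and C1qc in the complement and macrophage lists, and the differences between lists were not tested.

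**Figure D4:**
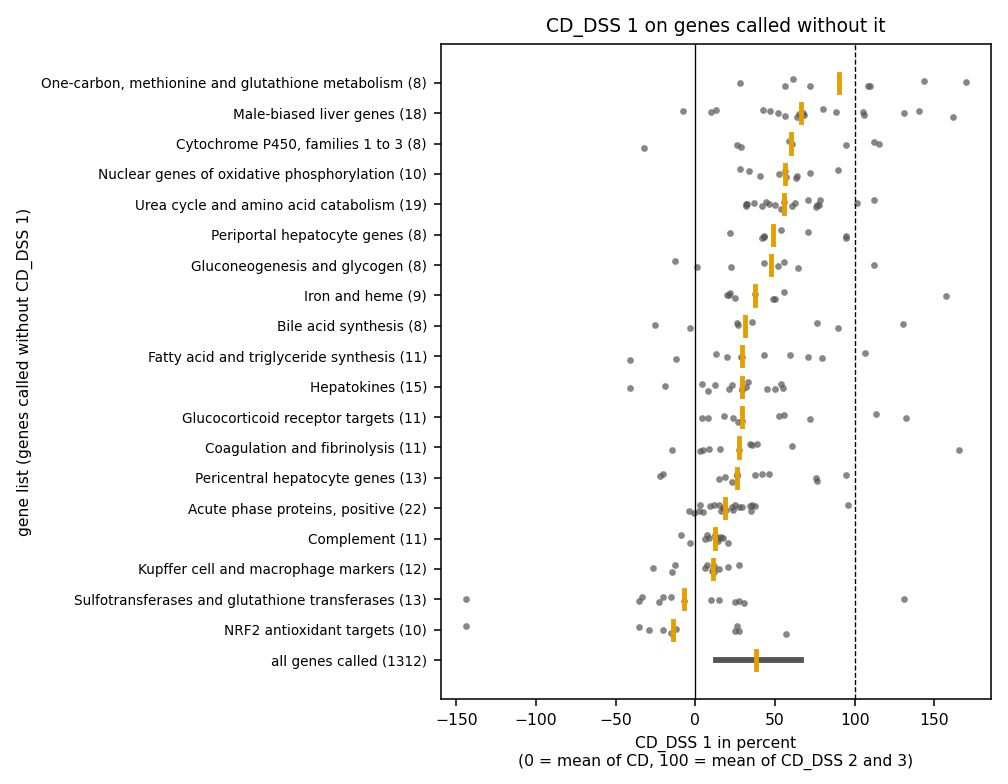
Position of CD_DSS 1 in percent (0 = mean of CD, 100 = mean of CD_DSS 2 and 3) for genes called without it, by gene list with at least 8 such genes; grey points are genes, orange bars medians, and the thick bar of all 1312 genes spans the middle 50%. The acute phase, complement and macrophage lists have medians of 18.6%, 12.2% and 10.9%, and the one-carbon and male-biased lists lie nearer to 100.

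The effect of DSS on the CD diet was set beside its effect on the high-fat diet, which rests on other libraries. Among those, HFD 1 stood apart, with Saa1 at 579 FPKM against 19.9 and 22.4 in HFD 2 and 3 and Lcn2 at 35.8 against 1.18 and 0.746. In HFD_DSS 1, 2 and 3 Saa1 was at 1104, 190.8 and 2670.4 FPKM, lowest in HFD_DSS 2. On the same 10230 genes, HFD_DSS against HFD called 531 (5.19%). Of these calls 193 were shared in the same direction, 36.3% of the calls of either diet, and 0 were called in opposite directions. Without HFD 1 and HFD_DSS 2, left out after their values were seen, 1271 genes (12.4%) were called on the high-fat diet and 753 on the CD diet. Of these, 404 were shared in the same direction, 53.7% of the calls on the CD diet and 31.8% of those on the high-fat diet, and 3 were opposite. Of the 10230 genes, 507 had an unadjusted p under 0.05 for the difference between both effects (limma interaction). That is about the share of 0.05 that would pass if no gene differed. After adjustment the difference passed the threshold for 1 gene (0.00978%). That gene was BC049987, an RNA gene of chromosome 9 (ENSMUSG00000110755, mm10 positions 44670453 to 44672238), which had 6.65, 8.13 and 6.94 FPKM in CD and 1.59, 2.23 and 1.64 in CD_DSS (−1.55, SE 0.13, limma adjusted p = 0.00126). On the high-fat diet its log2 fold change was 0.11. Its fall on the CD diet held in all 6 fits, while its difference between the diets did not: 0 genes differed without CD 1, CD 2, CD_DSS 1 or CD_DSS 3.

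Several metabolic genes had unlike values on the 2 diets without passing the test of the difference. For Cyp7a1 the log2 fold change was −3.83 on the CD diet and −0.02 on the high-fat diet (limma interaction, unadjusted p = 0.0021, adjusted p = 0.708). For Cyp8b1 it was −1.48 and −0.26 (limma interaction, unadjusted p = 0.00029, adjusted p = 0.484). For Id2 it was 1.17 and 0.22 (adjusted p = 0.484) and for Hsd17b6 1.31 and −0.25 (adjusted p = 0.708). None of these differences was past the threshold. The median over the 30 cholesterol synthesis genes was −0.46 on the CD diet and 0.34 on the high-fat diet. By contrast, the log2 fold changes of Socs3 were 2.31 and 2.42, of Cxcl1 3.29 and 3.68, of Fosl2 0.77 and 0.76 and of Sucnr1 −2.21 and −2.40.

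**Figure D5:**
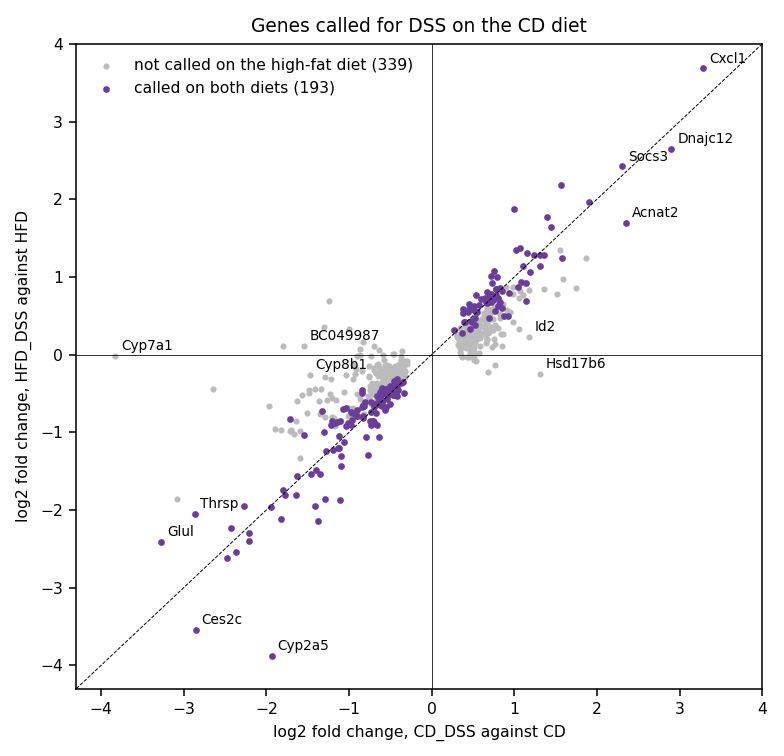
Log2 fold change of FPKM + 1 for DSS on the high-fat diet against that on the CD diet for the 532 genes called on the CD diet; purple points are the 193 called on both diets, grey points the 339 others, and the dashed line marks equal change. The 532 genes were chosen by the value on the horizontal axis, so points away from the line, such as Cyp7a1, Cyp8b1 and Hsd17b6, are a description.

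In mm10 coordinates, Thrsp (ENSMUSG00000035686) lies on chromosome 7 from 97412938 to 97417730. Zbtb16 (ENSMUSG00000066687) lies on chromosome 9 from 48654297 to 48836222, Id2 (ENSMUSG00000020644) on chromosome 12 from 25093799 to 25097140 and Socs3 (ENSMUSG00000053113) on chromosome 11 from 117966079 to 117970047. Bhmt (ENSMUSG00000074768) lies on chromosome 13 from 93616675 to 93637961, Cth (ENSMUSG00000028179) on chromosome 3 from 157894248 to 157925077 and Cxcl1 (ENSMUSG00000029380) on chromosome 5 from 90891241 to 90893115.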

How the data were processed

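Liver RNA-seq was measured in 12 libraries, 3 in each of 4 groups taken from the sample labels. The values deposited by the authors are FPKM per gene; they used the genome mm10 according to the submitters' processing notes. No source used here names the aligner, the counting tool or its strand setting. The deposited FPKM table also held 4 unnamed columns with no values, which were not used. Depth was 23.4 to 29.4 M fragments. With exon lengths of the annotation, 97.0 to 97.3% of the values under 500 fragments were whole within 0.02.

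Genes reaching 1 FPKM in 3 or more of the 6 CD and CD_DSS libraries were tested on log2(FPKM + 1), which understates the change of low genes. limma 3.58.1 (R 4.3.3) fitted 4 group means to the 12 libraries with a variance trend, two-sided, with Benjamini-Hochberg adjustment over all 10230 genes and a threshold of 0.05. The spread is thus shared with the HFD groups. The script was tested on simulated data. Alternatives were other pseudocounts, filters, scalings and variance models, a replicate block, voom on recovered fragments and leaving out each library.

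The members and gene lists were chosen with earlier results of these data known. Named genes were the called genes furthest from 0 and fixed numbers per list. Genes outside that rule were chosen after their values were seen: Aass, Agxt2, Arg1, Asl, Car1, Car14, Car5a, Egr1, Ethe1, Fos, Hgd, Hpd, Jun, Mccc1, Otc, Pck1, Tst, Tstd3 and those named so in the text. Gene symbols were matched for 99.9% of identifiers. A few results are not reported here.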

Additional observations from a re-analysis of the deposited data

Results flagged for a closer look

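BC049987 was the gene whose response to DSS differed between the diets in a test of that difference. The log2 fold change was −1.55 on the CD diet and 0.11 on the high-fat diet, a difference of −1.66 (limma interaction, unadjusted p = 2.1e-06, adjusted p = 0.021). The 3 CD_DSS libraries were below the 3 CD libraries. The difference was not past the threshold without CD 1, CD 2, CD_DSS 1 or CD_DSS 3, each left out alone.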

How the results depend on the processing

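The 532 calls became 166 with no filter on low values, 264 with CD and CD_DSS fitted alone, 2566 with library weights and 68 to 1312 when 1 library was left out. They were 399 to 573 under the other alternatives, apart from the replicate block, and 753 without HFD 1 and HFD_DSS 2, an alternative chosen after seeing the data because Saa1 in these libraries was unlike the rest of their groups. With the replicate block 336 genes were called. Same-numbered CD and CD_DSS libraries deviated with correlations of 0.063, 0.127 and 0.048. Among the 3 CD_DSS libraries, each CD library correlated best with its own number. With the HFD libraries the numbers did not match in this way. CD 1 correlated at −0.249 with HFD 1 and 0.227 with HFD 3, and CD 3 at −0.099 with HFD 3 and 0.221 with HFD 1. CD 2 correlated at 0.115 with HFD 2. Whether same-numbered libraries share more than a number was not tested. The 1 gene that differed between the diets became 0 with no filter, with genes whose mean reached 5 FPKM and without HFD 1 and HFD_DSS 2, and 0 to 2 when 1 library was left out. Some genes that were not called changed sign. With quantile normalization Alb was 0.00, Arg1 0.0072 and Nr0b2 0.017, and with library weights Arg1 was 0.12. With 1 library left out, Arg1 ranged from −0.17 to 0.11, Egr1 from −0.68 to 0.14, Nr0b2 from −0.34 to 0.27 and Jun from −0.015 to 0.35. Of the 122 called genes named in the text, 82 were not called with no filter, 37 with the block, 30 with TPM scaling and 1 with voom. The cause was not tested.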
